A study of Mus musculus with 10 samples.

Results

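Gene deserts are long stretches of the genome without protein-coding genes, and 7085 open regions in them are described here. Peaks of 10 ATAC-seq libraries were merged where they overlapped, which gave 208851 regions, and a region was kept if it lay on an autosome, more than 250 kb from every protein-coding gene of mm10, and under a peak in both libraries of at least 1 stage. Of the 114063 autosomal regions with a peak in both libraries of a stage, these members made up 6.21%. The rule used position and peaks called in both libraries of a stage, and no level of openness beyond that call. Every member is thus open in at least 1 stage by choice. The libraries, 2 per stage, came from mouse cells of a C57BL/6 x 129 background. Fibroblasts (MEF) carried OKSM Col1a1/M2rtTA ROSA26, that is, a cassette at Col1a1 that codes for Oct4, Klf4, Sox2 and Myc together and, at ROSA26, the activator that switches it on with doxycycline. They were collected unsorted and without doxycycline. The same cells were collected after 3 days (DAY3, unsorted), 6 days (DAY6) and 9 days (DAY9) in stem cell medium with doxycycline at 1 ug/ml and ascorbic acid at 50 ug/ml. The DAY6 and DAY9 cells had been sorted for the surface marker SSEA1, so a change of day and the sort cannot be told apart there. The reference was V6.5 (ESC), 1 embryonic stem cell line without the cassette, kept with LIF on irradiated feeder cells, so line, genotype and stage cannot be told apart. All libraries carry 1 batch name.

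In ATAC-seq a transposase cuts DNA that is free of nucleosomes and leaves sequencing adapters there, so peaks mark promoters, enhancers and sites of bound factors. Many developmental regulators, among them transcription factors and signalling genes, are known to lie beside gene deserts, and their enhancers can act over very long distances. Other deserts flank large genes of neuronal adhesion, such as cadherins, protocadherins and teneurins. CTCF, which anchors chromatin loops, also binds far from genes and often in the same places in many cell types.

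Deserts without protein-coding genes still hold genes for long noncoding RNAs (lncRNA) and microRNAs. Among 32851 RefSeq promoters (GRCm38.p6, the build of mm10, from 250 bases before to 50 after the start), 91 lay at least 1 bp under 82 members, and 84 lncRNA genes had such a promoter. The sequences below are 5 of them, 1 for each of 5 stage patterns. Each is the whole window around a start site, and the start itself can lie outside the member. Capitals mark matches to the motifs searched on both strands.
2410018L13Rik: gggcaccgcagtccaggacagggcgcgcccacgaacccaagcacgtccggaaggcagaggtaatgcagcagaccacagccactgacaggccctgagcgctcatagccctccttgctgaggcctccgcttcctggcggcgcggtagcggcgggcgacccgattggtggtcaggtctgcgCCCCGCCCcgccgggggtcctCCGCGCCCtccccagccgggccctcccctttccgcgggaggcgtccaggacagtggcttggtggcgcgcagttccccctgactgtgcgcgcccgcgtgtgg
Gm34698: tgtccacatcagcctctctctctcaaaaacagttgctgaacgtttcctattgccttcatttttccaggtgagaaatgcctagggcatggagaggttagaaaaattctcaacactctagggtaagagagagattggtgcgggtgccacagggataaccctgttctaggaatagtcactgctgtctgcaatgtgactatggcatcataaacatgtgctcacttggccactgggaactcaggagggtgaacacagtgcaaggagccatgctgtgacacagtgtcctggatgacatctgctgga
Gm40748: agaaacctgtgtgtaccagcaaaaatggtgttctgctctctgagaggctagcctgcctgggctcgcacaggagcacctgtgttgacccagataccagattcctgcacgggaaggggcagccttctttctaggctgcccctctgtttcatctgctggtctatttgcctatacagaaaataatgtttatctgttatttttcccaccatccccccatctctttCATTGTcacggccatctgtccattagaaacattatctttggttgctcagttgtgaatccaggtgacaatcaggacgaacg
Gm6634: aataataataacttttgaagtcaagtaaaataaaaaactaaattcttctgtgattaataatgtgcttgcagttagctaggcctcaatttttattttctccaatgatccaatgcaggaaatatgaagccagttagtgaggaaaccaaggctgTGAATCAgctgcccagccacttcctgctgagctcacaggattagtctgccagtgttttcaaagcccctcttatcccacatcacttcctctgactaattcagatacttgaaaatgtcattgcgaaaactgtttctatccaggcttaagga
Gm33958: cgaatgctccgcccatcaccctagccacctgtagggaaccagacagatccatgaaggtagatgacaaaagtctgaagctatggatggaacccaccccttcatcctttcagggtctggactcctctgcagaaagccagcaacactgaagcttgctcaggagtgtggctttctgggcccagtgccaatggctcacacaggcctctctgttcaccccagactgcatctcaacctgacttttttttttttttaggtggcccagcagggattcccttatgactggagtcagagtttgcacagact

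The promoter of 2410018L13Rik, on the minus strand at chr12:23010194-23010493, has 2 matches to the Klf motif CCNCNCCC and lay under a member open at all 5 stages. The Gm34698 promoter, on the minus strand at chr1:120993629-120993928, lay with 100 of its 300 bases in a member open in ESC alone. Its start lay outside the member. The Gm40748 promoter, on the minus strand at chr10:96308683-96308982, lay with 242 of its 300 bases in a member open from DAY6 on. Its start lay just outside the member, and the promoter has 1 match to the Sox motif ACAATG. Gm6634, on the minus strand at chr3:70807242-70807541, was open in MEF alone, and its promoter has 1 match to the AP-1 motif TGANTCA. The Gm33958 promoter, on the minus strand at chr13:44400112-44400411, lay under a member open at DAY3, DAY6 and DAY9. Over the 91 promoters under members, 16.5% had a TGANTCA match, beside 9.31% of all lncRNA promoters and 7.81% of all promoters of this length. An ACAATG match was present in 23.1%, beside 15.4% of lncRNA promoters, and a CCNCNCCC match in 36.3%, beside 36.4%. A match to the CTCF motif was present in 2.20%, beside 2.58%. The octamer ATTTGCAT was found in 4.40%, beside 1.87%, the Tead motif GGAATG in 15.4%, beside 16.6%, and the Runx motif TGTGGTT in 4.40%, beside 6.29%. The Esrrb motif TCAAGGTCA was found in none of the 91 windows and in 0.587% of lncRNA promoters. These matches are letters in a window, and their share under members was not tested. The 91 windows belong to 84 lncRNA genes under 82 members, and some windows overlap. A match can thus count more than once, as for the octamer at Gm31415 and the Sox motif at Gm45941.

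Hairpins of 14 microRNAs lay within 5 kb of 19 members. The mature strands below come from hairpins whose members are described at the end, and not every such strand is printed. Capitals mark the seed, bases 2 to 8, with which a microRNA pairs to its targets. The 4 strands named 5p of the Mir344 hairpins share the seed GUCAGGC, and 2 of those named 3p share GAUCUAG.
mmu-miR-344d-3-5p: aGUCAGGCuagugguuauacucc
mmu-miR-344c-5p: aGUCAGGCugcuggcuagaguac
mmu-miR-344-5p: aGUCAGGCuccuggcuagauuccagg
mmu-miR-344g-5p: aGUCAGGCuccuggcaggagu
mmu-miR-344c-3p: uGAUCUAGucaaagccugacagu
mmu-miR-344-3p: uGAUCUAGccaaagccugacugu
mmu-miR-125b-5p: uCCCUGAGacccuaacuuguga
mmu-miR-99a-5p: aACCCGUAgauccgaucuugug
mmu-let-7c-5p: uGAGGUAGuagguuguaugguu
mmu-miR-135a-5p: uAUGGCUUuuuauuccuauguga

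The 10 deposited lists held 45497 to 88980 peaks, with the lowest numbers at DAY3 and the highest in ESC. Read depth is unknown. The peak heights of the 2 DAY3 libraries differed by 1.33 times counting noise and those of the DAY9 libraries by 1.42 times, against 11.4 for MEF, 3.62 for DAY6, 9.47 for ESC and 4.56 to 35.3 between libraries of different stages. The DAY3 libraries were therefore counted as 1 sample and the DAY9 libraries likewise, which left 8 samples. Labels were checked by peaks within 1 kb of the start or end of marker genes. Of 12 stem cell markers, both MEF libraries had a peak at 3 and both ESC libraries at 11, with 4, 8 and 10 at the stages between. Of 10 fibroblast markers the counts from MEF to ESC were 8, 6, 5, 6 and 6, so the ESC libraries too had peaks at most fibroblast markers, and of 5 epithelial markers they were 0, 2, 4, 5 and 4. Of 4 blood and endothelial markers the counts were 0, 0, 1, 1 and 1, with Ptprc and Pecam1 without a peak in any library, and of 4 trophoblast and endoderm markers 2 had a peak in both ESC libraries and none at the other stages. The part of other cells in the results was not tested.

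The deserts were counted as stretches between neighbouring protein-coding genes, less 250 kb at each end. There were 600 between 2 genes of an autosome, with 413 Mb in all, 17.0% of the span between the outermost genes, and 552 of them held a member. Members numbered 17.0 per Mb of desert, beside 53.0 other regions per Mb of the rest of that span. Some deserts without a member were long stretches near the start of a chromosome. Examples are LOC102636558 to Xkr4 on chromosome 1 (2.47 Mb) and LOC115489384 to Rab10 on chromosome 12 (2.68 Mb). Such stretches enter the count, the length and the density above. Whether reads can map there was not tested, and the placement of the genes that bound them was not checked. A desert with any member had a median of 9, 273 deserts had 10 or more, and 109 deserts held 50% of all members. The other 69 members lay beyond the outermost gene of a chromosome. The nearest gene was a median of 436 kb away and at most 2249 kb, and 789 members were more than 1 Mb from any gene. The median width of a member was 665 bp, beside 687 bp for other regions. By chromosome the members made up between 2.97% of the reproducible regions of chromosome 19, which is rich in genes, and 9.93% of those of chromosome 3.

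The share of peaks in deserts was lowest in the libraries of the 3 induced stages, but over all samples the stages were not told apart beyond the spread. Of autosomal peaks, 5.31% and 5.24% lay over 250 kb from genes for the MEF libraries and 5.81% and 8.15% for the ESC libraries. Between them, the DAY3 libraries had 3.60% and 3.54%, the DAY6 libraries 4.22% and 4.02% and the DAY9 libraries 3.88% and 3.92%. All 6 libraries of the induced stages were below all 4 MEF and ESC libraries, and ESC replicate 2 stood above every other library. The stage means were 5.28% ± 0.0463 (SD, n = 2) for MEF, 3.57% for DAY3 (n = 1), 4.12% ± 0.140 (SD, n = 2) for DAY6, 3.90% for DAY9 (n = 1) and 6.98% ± 1.65 (SD, n = 2) for ESC. Stage accounted for 82.3% of the sum of squares (exact permutation test, 69 of 420 arrangements at least as extreme, p = 0.164, adjusted p = 0.256 by Benjamini-Hochberg over 5 tests). The call turned on the ESC libraries: without ESC replicate 1 the share was 99.9% and without ESC replicate 2 it was 99.5% (exact permutation test, adjusted p = 0.0476 in both cases). With the 10 libraries as separate samples it was 84.9% (exact permutation test, adjusted p = 0.00176).

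**Figure D1:**
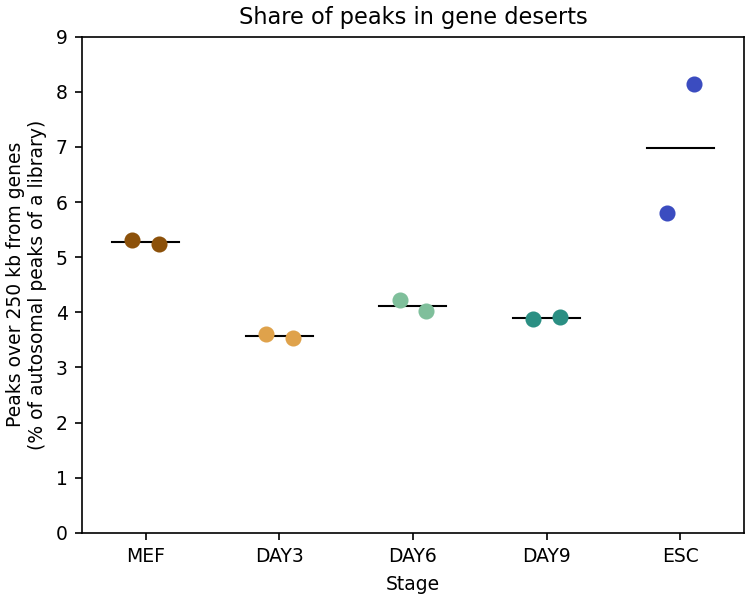
Percent of the autosomal peaks of each library (y axis) that lie over 250 kb from every protein-coding gene, by stage (x axis); each point is 1 library and each line the mean of the stage. The points of DAY3, DAY6 and DAY9 lie between 3.54% and 4.22%, below MEF at 5.24% and 5.31%, and the ESC points are apart at 5.81% and 8.15%.

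Members were mostly open at 1 stage. A peak in both libraries of 1 stage and of no other was found for 5077 members, 71.7%, beside 50.4% of the other autosomal regions. ESC alone took 2563 members, 36.2%, where 18.2% of all reproducible autosomal regions had this pattern and 17.0% of those outside deserts. MEF alone took 1565, 22.1%, beside a background of 18.1%, and DAY9 alone 617, 8.71%, beside 11.4%. DAY3 alone took 217 (3.06%, background 2.49%) and DAY6 alone 115 (1.62%, background 1.52%). Open at all 5 stages were 163 members, 2.3%, where the background was 13.1%. Patterns that opened on the way and were kept to ESC held 172 members from DAY3 on (2.43%, background 3.53%), 331 from DAY6 on (4.67%, background 5.34%) and 293 from DAY9 on (4.14%, background 5.54%). Members without a peak in any MEF or ESC library, but in both libraries of a stage between, numbered 1137 (16.0%, background 17.1%), and their share was near the background. Open at DAY3, DAY6 and DAY9 but not in both libraries of an end state were 283 (3.99%, background 4.72%), at DAY6 and DAY9 301 (4.25%, background 5.12%), and in MEF and DAY3 alone 86 (1.21%, background 1.48%). Of the members of ESC alone, 2249 (87.7%) had no peak in any single library of another stage, beside 74.2% of such regions outside deserts. Of those of DAY9 alone, 248 (40.2%) had none, beside 34.4%.

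The share of ESC alone moved with the library that was read. It was 55.0% of members without ESC replicate 1 and 44.1% without ESC replicate 2, beside 29.2% and 28.6% of the other regions. The share of MEF alone was 32.7% without MEF replicate 1 and 36.3% without MEF replicate 2, beside 26.6% and 28.7%. With every list shortened to the number of peaks of the shortest, ESC alone held 31.4% of members and MEF alone 22.0%. The shares of the other regions with these shortened lists are not given here, so members and other regions cannot be compared there.

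ESC-only openness went up with distance from genes. It was 13.9% of the regions inside genes, 24.4% at 100 to 250 kb, 30.0% at 250 to 500 kb, 41.4% from there to 1 Mb and 55.4% of the 789 members beyond 1 Mb. MEF-only openness went from 16.6% inside genes to 24.5% at 100 to 250 kb, and was 23.8%, 22.1% and 12.9% in the 3 classes of members. Regions open at all stages went from 19.8% inside genes to 1.27% beyond 1 Mb. At that distance, 69.6% of members had a peak in both ESC libraries and 16.9% in both MEF libraries, and at 250 to 500 kb the shares were 47.1% and 31.7%. Without ESC replicate 1 the ESC-only share went from 24.6% in genes to 74.1% beyond 1 Mb, and without ESC replicate 2 from 25.4% to 60.4%. These are shares of regions of the same 10 libraries and carry no test. On either side of the limit, the 297 members within 10 kb above it and the 295 regions within 10 kb below it had 27.3% and 28.1% ESC alone.

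**Figure D2:**
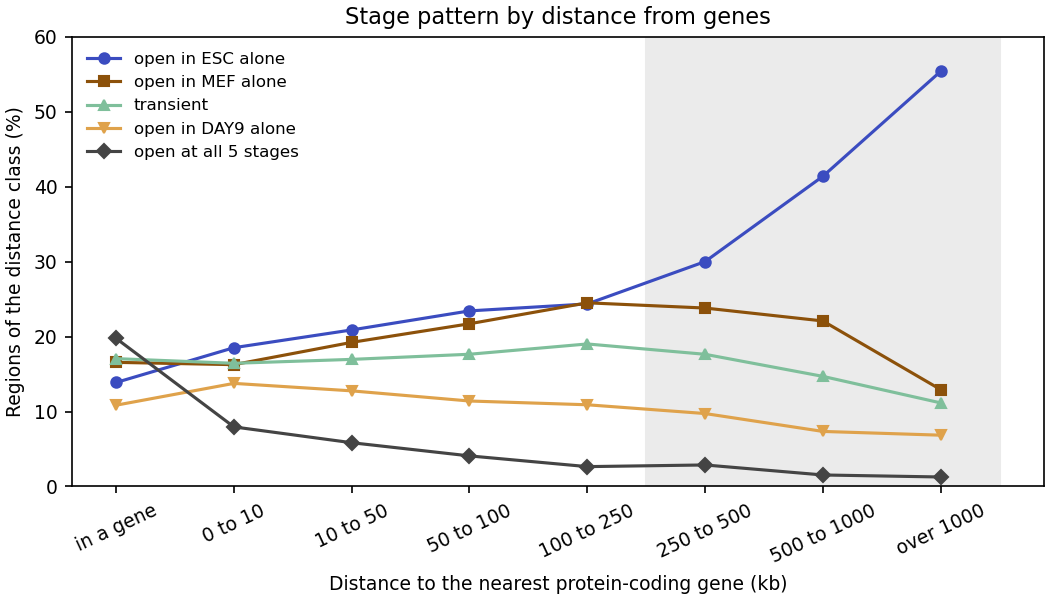
Percent of reproducible autosomal regions (y axis) with each of 5 stage patterns, by distance to the nearest protein-coding gene (x axis, unequal classes); the grey area marks the members. The line of ESC alone goes from 13.9% to 55.4%, and that of regions open at all stages from 19.8% to 1.27%.

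Most members of the stem cell state had no peak up to DAY9, and the share with one was higher at DAY6 and DAY9 than before. Of the 3675 members with a peak in both ESC libraries, 10.3% and 8.98% had a peak in the MEF libraries, 12.4% and 12.7% at DAY3, then 25.6% and 23.6% by DAY6 and finally 31.0% and 31.0% by DAY9. The libraries of DAY6 and DAY9 did not overlap with those of MEF and DAY3. The mean went from 9.62% ± 0.904 (SD, n = 2) for MEF over 12.6% at DAY3 and 24.6% ± 1.40 (SD, n = 2) by DAY6 to 31.0% by DAY9, a rise of 21.4 percentage points (exact Jonckheere-Terpstra test, two-sided, p = 0.0111, which is the lower limit of the design, adjusted p = 0.0278). Of the 53162 regions outside deserts chosen in the same way, 43.8% and 36.9% had a peak in the MEF libraries and 66.3% and 66.5% in the DAY9 libraries. The gap between deserts and elsewhere was −30.7 ± 4.03 points in MEF (SD, n = 2) and −35.4 points in DAY9 and had no trend beyond the spread (exact permutation test, adjusted p = 0.256). Set beside only those other regions over 10 kb from genes, whose share was 25.6% and 19.4% in MEF and 52.4% and 52.8% in DAY9, the gap widened by 8.76 points (exact permutation test, adjusted p = 0.0741). Longer lists have more peaks to share in any set, and the DAY3 lists were the shortest; with equal numbers of peaks the rise in the deserts was 19.4 points (exact permutation test, adjusted p = 0.0278). With either MEF or either DAY6 library left out the rise was between 20.7 and 22.0 points, the smallest p of the design was 0.0333, and the adjusted p was 0.0833 to 0.167 (exact permutation test).

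Most members of the fibroblast state had no peak from DAY3 on. Of the 2029 members with a peak in both MEF libraries, 20.6% and 20.5% had a peak in the DAY3 libraries, 18.4% and 17.3% by DAY6, then 16.5% and 16.1% by DAY9 and finally 14.1% and 15.9% in the ESC libraries. Every later library thus lacked a peak at most of them. The mean fell by 5.52 points from 20.5% in DAY3 to 15.0% ± 1.22 (SD, n = 2) in ESC (exact Jonckheere-Terpstra test, two-sided, p = 0.0111, adjusted p = 0.0278). The test was not passed without either MEF library, when the set changes and the change was −2.96 points without MEF replicate 1 and −1.58 points without MEF replicate 2 (exact permutation test, adjusted p = 0.204 and 0.426). Without either DAY6 library the change stayed −5.52 points (adjusted p = 0.0833 in an exact permutation test), and without ESC replicate 1 or 2 it was −4.66 and −6.38 points (adjusted p = 0.0556 in an exact permutation test). In these 4 cases the p before adjustment was 0.0333, the smallest that the reduced design allows. Of 43203 other regions chosen in this way, 49.5% and 49.4% had a peak in DAY3 and 47.0% and 46.6% in ESC. The change of the gap to them was −2.86 points (exact permutation test, adjusted p = 0.256).

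**Figure D3:**
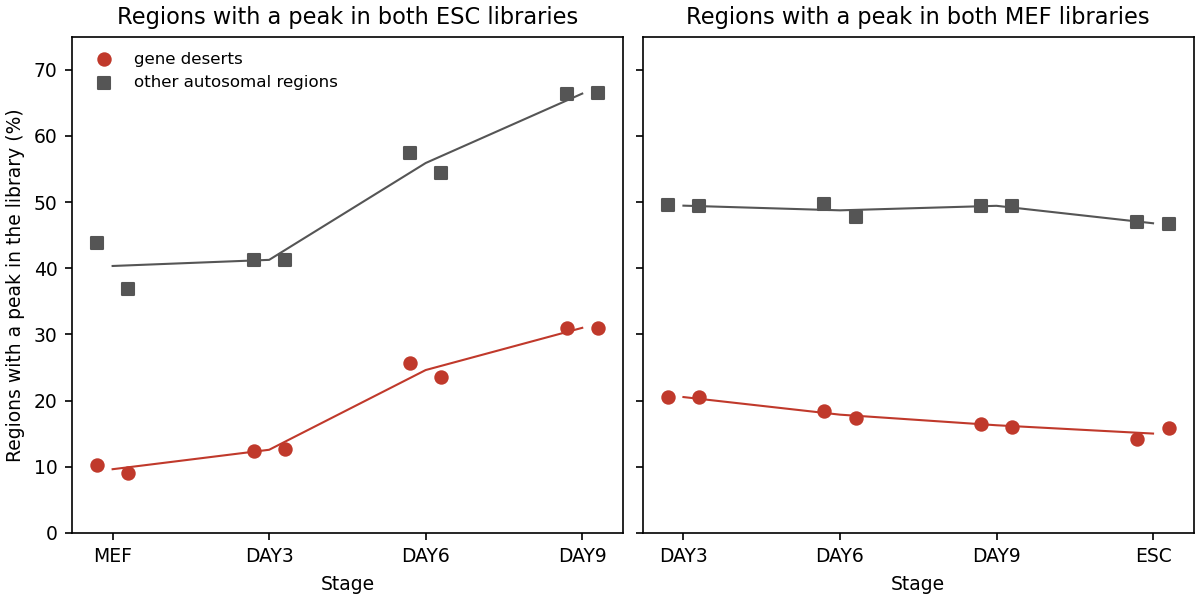
Percent of regions with a peak in a library (y axis) by stage (x axis), for regions open in both ESC libraries (left) and both MEF libraries (right), in gene deserts (red circles) and elsewhere on autosomes (grey squares); points are libraries, lines join stage means. In deserts the ESC set goes from 9.62% in MEF to 31.0% in DAY9 and the MEF set from 20.5% in DAY3 to 15.0% in ESC, both below the other regions.

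Step by step, a region was counted as gained if both libraries of the later stage and neither of the earlier had a peak, and as lost in the opposite case; with 2 libraries against 2 no p-value under 0.333 can be had, so these are counts. From MEF to DAY3, 663 members (9.36%) were gained where the background over all reproducible autosomal regions was 9.69%, and 1554 (21.9%) were lost beside 18.8%. From DAY3 to DAY6, 615 (8.68%) were gained beside 9.40% and 205 (2.89%) lost beside 2.68%. From DAY6 to DAY9, 497 (7.01%) were gained beside 9.61% and 133 (1.88%) lost beside 1.71%. In these middle steps the shares were near the background, except that the gain from DAY6 to DAY9 was below it. From DAY9 to ESC, 2412 (34.0%) were gained beside 15.9%, and 946 (13.4%) lost beside 16.4%. Reading the last step with 1 ESC library gave 52.5% gained without replicate 1 and 41.8% without replicate 2. The counts of the middle steps moved by over 1.5 times with 1 library: members gained at DAY6 were 15.2% without DAY6 replicate 1 and 18.7% without replicate 2, members lost at DAY9 6.62% and 8.69%, members gained at DAY9 11.1% without DAY6 replicate 1, 11.7% without DAY9 replicate 1 and 11.4% without DAY9 replicate 2, and members lost at DAY6 5.43% without DAY3 replicate 1 and 5.97% without replicate 2. Those lost at DAY3 were 36.9% without MEF replicate 2. For these steps the background with 1 library left out is not given here.

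Between the end states, 3226 members (45.5%) were gained in ESC against MEF where the background was 28.0%, and 1678 (23.7%) were lost beside 20.1%. Of the gained ones, 2480 (76.9%, background 60.5%) were first open in ESC, 157 (4.87%, background 8.79%) at DAY3, 325 (10.1%, background 14.8%) at DAY6 and 264 (8.18%, background 15.9%) at DAY9. Of the lost ones, 1465 (87.3%, background 79.4%) were without a peak at DAY3 already, 94 (5.60%, background 9.38%) first at DAY6, 64 (3.81%, background 4.61%) first at DAY9 and 55 (3.28%, background 6.61%) in ESC alone. Without MEF replicate 2 the lost share was 37.6%, and the background without that library is not given here. Without ESC replicate 1 the members first open at DAY3 were 3.23% and those at DAY6 6.39% of the gained.

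Within a list, peaks over members were about as strong as peaks elsewhere. The fold is the authors' enrichment of a peak over its local background. Its median over members was 6.12 and 3.75 in the MEF libraries, beside 6.28 and 4.10 elsewhere, and 5.91 in ESC replicate 1, beside 6.01. ESC replicate 2 went the other way, with 6.04 over members and 5.10 elsewhere. Over the induced libraries the medians were 4.42 to 5.71 for members and 4.86 to 6.02 elsewhere, and in each of the 6 the members were lower. Members of ESC alone had a median fold of 5.58 and 6.19 in the ESC libraries and those open at all stages 8.70 and 8.06. Of DAY9 alone the median was 3.70 in both libraries, and of members open from DAY3 and kept to ESC 8.45 and 6.97 in ESC.

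The strongest members by the weaker replicate show each class at a single place. Of the members open at all 5 stages, that at chr8:29965242-29965622, 746 kb from Unc5d, a netrin receptor gene, had folds of 42.6 and 31.9 before induction (MEF), 43.8 and 43.1 at DAY3, then 43.4 and 44.4 at DAY6, 41.1 and 42.2 at DAY9 and 43.9 and 43.4 for ESC. At chr6:9889808-9890310, 640 kb from the neurexophilin gene Nxph1, the 10 folds lay between 37.0 and 39.1. Both were thus high in every library. The 20 members with the strongest peaks were all open at all 5 stages. They were 381 to 686 bp wide, beside a median of 673 bp for all members open at all stages and 1159 bp for such regions elsewhere. The highest fold of each was 27.3 to 44.4, far above the medians over members. How reads that match several places were counted is not given in the sources used here. The part of such reads in these peaks was not tested.

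Among members of ESC alone, that at chr10:104650946-104651601, 454 kb from Gm4340 and 536 kb from Tmtc2, had folds of 20.5 and 17.5 in ESC and 4.44 in DAY9 replicate 1. The region at chr5:55791664-55792506 lay between Stim2, a calcium sensor of the endoplasmic reticulum, and the protocadherin gene Pcdh7, 1671 kb from the nearer. Its folds were 19.96 and 17.2 in ESC, and no other library had a peak. In the same desert, the region at chr5:54578211-54578996, 457 kb from Stim2, was open in MEF alone, with folds of 14.4 and 13.4 and a peak of 3.91 in DAY6 replicate 2. One desert between a pair of genes thus held strong members of both end states.

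The strongest member of MEF alone, and the strongest of those open in MEF and DAY3 alone, lay between Nr2f1, the gene of the nuclear receptor COUP-TFI, and Arrdc3. The region at chr13:78809515-78810193, 611 kb from Nr2f1, had folds of 19.5 and 14.1 in MEF and no peak in any other library. At chr13:80556857-80557890, 325 kb from Arrdc3, the folds were 16.7 and 15.0 in MEF and 3.49 and 4.15 in DAY3, with no peak later.

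Members that opened on the way and stayed open were ranked by their folds in ESC, so that high values there are part of the choice. At chr2:8498305-8499142, between Celf2 and the transcription factor gene Gata3 and over 1 Mb from both, the folds were 6.50 and 7.34 at DAY3, 11.7 and 15.8 at DAY6, 13.4 and 13.2 at DAY9 and finally 19.3 and 18.8 for ESC. The region at chr12:65593316-65594586 had 9.04 and 8.77 in DAY3 and 18.4 in both ESC libraries. First open at DAY6 was chr7:52732027-52732828, 716 kb from 1700015G11Rik and 2102 kb from Luzp2, with folds of 14.4 and 13.3 there, 22.3 and 20.4 at DAY9 and 21.2 and 18.4 for ESC. In the Nmbr to Cited2 desert, chr10:15262955-15264006 had 7.59 and 6.61 at DAY6, 16.8 and 15.3 at DAY9 and 20.1 and 18.3 for ESC. First open at DAY9 was chr15:16130236-16131583, 597 kb from the cadherin gene Cdh9, with 3.84 and 3.70 in DAY9 and 18.3 and 15.1 in ESC. None of these had a peak in MEF.

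The strongest members open in both libraries of induced stages, but of neither end state, could still have a peak in 1 ESC library. At chr13:26407875-26408762, 359 kb from Hdgfl1, the folds were 9.84 and 10.8 at DAY3, 15.4 and 19.9 at DAY6 and 19.2 and 18.4 at DAY9, with a peak of 3.57 in ESC replicate 1. At chr13:84570931-84571976, 275 kb from Tmem161b, they were 13.8 to 18.0 at the 3 stages, with a peak of 13.0 in ESC replicate 2 and none in ESC replicate 1. At chr12:50989386-50990363, 340 kb from the kinase gene Prkd1, the folds were 13.8 and 14.3 in DAY6 and 16.2 and 15.7 in DAY9, with 6.19 in DAY3 replicate 1. Strongest of DAY9 alone was chr8:8292414-8293230, 324 kb from the ephrin gene Efnb2, with 14.6 and 14.9 in DAY9 and no peak elsewhere.

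The 10 deserts with most members held 557 of them, 7.86%, on 6.33% of the desert length. Most lay between Zeb2, the gene of a zinc finger repressor of E-cadherin, and Acvr2a, an activin receptor gene: 67 members on 3.20 Mb, counted from 250 kb beyond each gene (chr2:45367443-48564108). Of these, 30 were open in MEF and 27 in ESC, with 16, 18 and 21 at the stages between, and 20 were open in MEF alone and 15 in ESC alone. Between Gm15501 and the teneurin gene Tenm4 (58 members), Slc10a2 and Efnb2 (58 members) and Nmbr and Cited2, the gene of a transcriptional coregulator (53 members), members of MEF alone numbered 13, 19 and 16 and those of ESC alone 16, 15 and 19. These deserts thus held nearly as many members of one end state as of the other.

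The other deserts of this group leaned to the later stages. Celf4 to Pik3c3 had 52 members, 31 of them open in ESC and 12 in MEF. Dsel to Cntnap5a, a gene of the neurexin family, had 48, with 32 open in ESC and 9 in MEF. Between Bcl11a, a zinc finger repressor gene, and Fancl lay 47, with 9 open in MEF and 6 at DAY3, and 18, 25 and 24 from DAY6 to ESC. The deserts Adam6a to Zfp386 (59 members) and Gm36448 to Dad1 (57) hold segments of antigen receptor genes. In them 121 and 175 segments, of all types together, are annotated and do not count as protein-coding genes in the table used. These segments are parts of the immunoglobulin and T cell receptor genes that only lymphocytes join and express. Their members were open in ESC (38 and 35) and in DAY9 (20 and 31) more often than in MEF (5 and 12). Over the series 5 deserts with segments held 174 members, and with segments counted as genes ESC alone had 35.9% and MEF alone 22.5% of the members left. Without ESC replicate 1 the Adam6a to Zfp386 desert had 106 members and the Nmbr to Cited2 desert 81.

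**Figure D4:**
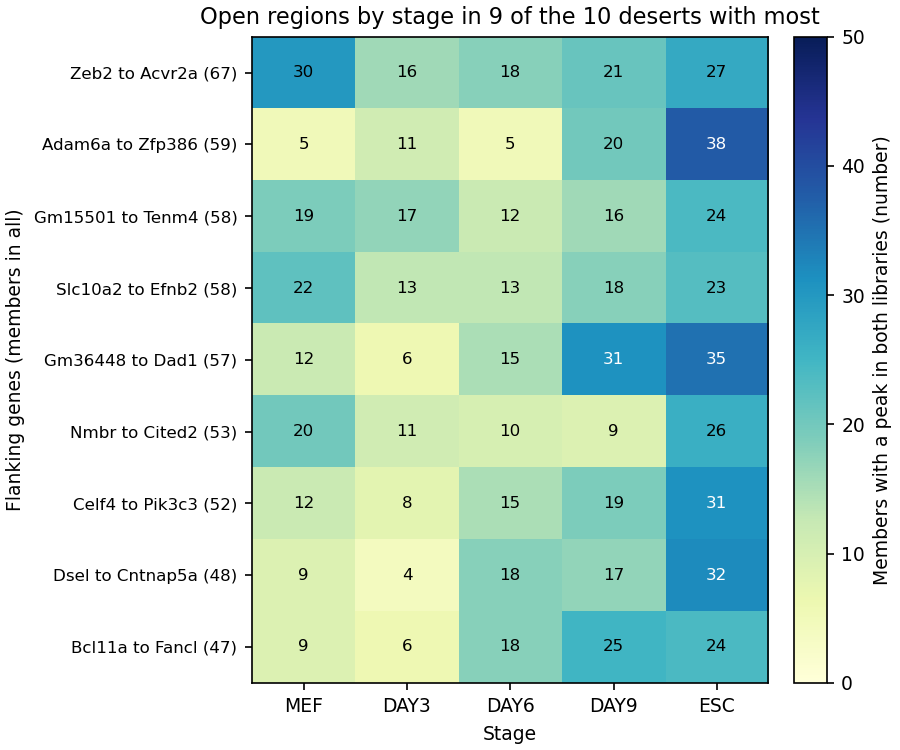
Number of members with a peak in both libraries (colour and digits) by stage (x axis) in 9 of the 10 deserts with most members (y axis, flanking genes and members in all). Zeb2 to Acvr2a has its highest number in MEF, 30 of 67, and Adam6a to Zfp386 in ESC, 38 of 59.

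**Figure D5:**
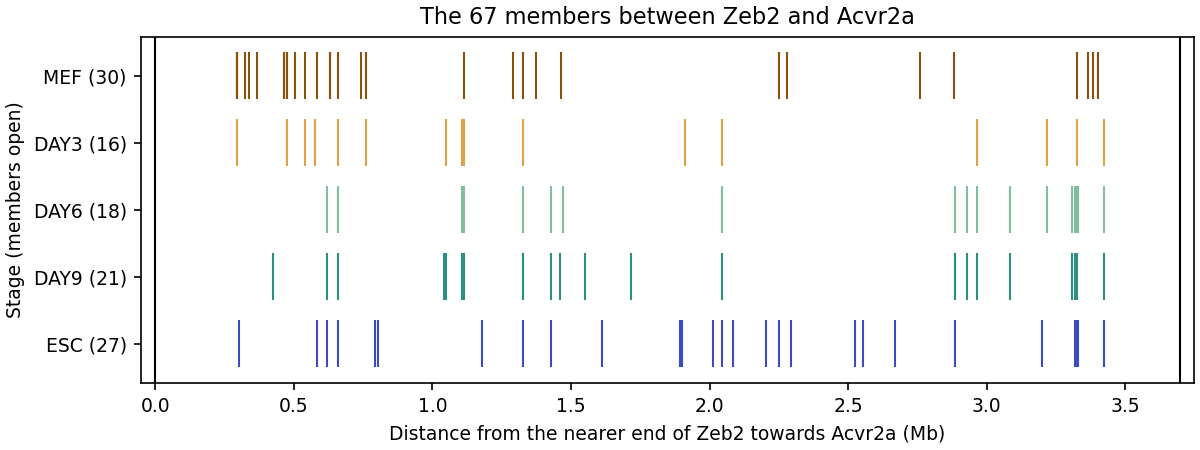
Members between Zeb2 and Acvr2a by distance from Zeb2 (x axis, Mb) and stage (y axis, with the number open); each line is a member with a peak in both libraries of the stage, and the black lines are the ends of the genes. The 30 MEF members and the 27 ESC members lie in between one another along the desert.

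Longer deserts held more members. Over the 600 deserts between 2 genes, with or without a member, Pearson's r of core length and members was 0.79. This is a description across deserts that share their libraries. Per Mb the densest deserts were short. Between 1500009L16Rik and the kinase gene Nuak1, 11 members lay on 0.108 Mb, 102 per Mb, beside a median of 20.1 per Mb among deserts with 10 or more members. Ubash3b to Gm40514 had 20 on 0.244 Mb, 15 of them open in MEF and 5 in ESC. Rspo3, the gene of a Wnt enhancer, to Cenpw had 13 on 0.160 Mb. Irx1 to Irx2, a pair of Iroquois homeobox genes, had 13 on 0.161 Mb, with 6 transient. Prkd1 to G2e3 had 14 on 0.199 Mb, with 10 open in DAY9 and 6 transient.

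Some deserts held nearly 1 stage. All 13 members between Cntnap5a and B020011L13Rik and all 11 between Ppp6c and the lipoprotein receptor gene Lrp1b were open in ESC alone, and 18 of 20 were between Ythdf3 and Cypt12. MEF alone took 14 of 16 members between Rasgrp1 and Thbs1, the thrombospondin gene, 8 of 11 between the transcription factor gene Runx1 and Setd4, and 8 of 12 between Arrdc4 and Nr2f2, the gene of COUP-TFII. Transient members were 6 of 11 between Rragc and Pou3f1, a POU factor gene, where all 11 were open in DAY9. They were 7 of 13 between the Slit receptor genes Robo1 and Robo2, and 6 of 12 between Cdh26 and 4930591A17Rik, where 11 were open in DAY9. These deserts were named for these shares, which are a description. Of the 273 deserts with 10 or more members, 183 had more members open in ESC than in MEF, 69 more in MEF and 21 as many.

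By the family of the flanking gene, deserts beside cadherins and protocadherins had most of their members open in ESC. The 26 such deserts held 624 members on 47.4 Mb, 13.2 per Mb, and 66.2% were open in ESC and 18.9% in MEF, beside 51.7% and 28.4% over all deserts between genes. ESC alone took 52.1% and MEF alone 14.7%, beside 36.4% and 22.3%. Without ESC replicate 1 ESC alone took 70.6%, and without ESC replicate 2 58.2%. The flanking genes included Cdh2, the N-cadherin gene, and Pcdh7, Pcdh9 and Pcdh17, whose products hold cells together in the nervous system. Among them, Pcdh20 to Pcdh9 had 47 members, 38 open in ESC and 8 in MEF, and Got2 to Cdh8 had 40, 32 open in ESC and 2 in MEF. Cdh11 to Cdh5 went the other way, with 27 members, 17 open in MEF and 3 in ESC. In 30 deserts beside other neuronal adhesion genes, such as contactins and teneurins, 597 members were 60.6% open in ESC and 45.7% in ESC alone.

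Deserts beside developmental transcription factors were denser and more even. The 72 of them held 762 members on 32.4 Mb, 23.5 per Mb beside 17.0 over all, of which 34.4% were open in MEF and 42.8% in ESC, with 18.9%, 23.9% and 38.3% at the stages between. MEF alone took 26.5% and ESC alone 26.1%. Deserts beside genes of the cassette's factors differed in stage. Sox2 to Atp11b had 18 members, 4 open in MEF, 11 in DAY9 and 6 in ESC, and Dnajc19 to Sox2 had 1, open in MEF. Myc to Gsdmc had 33, with 21 open in MEF and 9 in ESC, and A1bg to Myc 19, with 10 and 0. Klf4 to Actl7b had 18, with 7 open in MEF and 5 in ESC. In 31 deserts beside genes of signals and guidance, among them Fgf, ephrin and Robo genes, 414 members were 33.1% open in MEF and 43.5% in ESC, with 27.5% MEF alone and 20.5% transient. In 59 deserts beside predicted genes or olfactory or vomeronasal receptor genes, 583 members were 30.5% open in MEF and 50.6% in ESC. The only receptor genes among them were Olfr1505 and Vmn1r2. Olfr1505 to Tle4 held 1 member and LOC100862468 to Vmn1r2 0, so these values describe deserts beside predicted genes. Families were assigned by the stem of the symbol, so that a few relatives such as Fgfr2 and Runx1t1 are included, and a desert can count in 2 families. Their members were spread over deserts of unequal length and distance and were not tested against each other.

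Members lay farther apart than other regions. Within 12.5 kb of another member were 45.4%, while 80.4% of other regions had such a neighbour. These members formed 1273 groups, 144 of them of 4 or more. Of 1946 neighbouring pairs within this distance 27.3% had the same stage pattern, beside 19.7% of all pairs of members. The largest group, 27 members in 38.1 kb, lay at the first listed bases of chromosome 9 (chr9:3000079-3038180), before Alkbh8, and 24 of them were among the 163 open at all 5 stages. From MEF to ESC, 25, 26, 25, 26 and 26 of the 27 were open. The treatment of reads that match several places is unknown, and their part in this group was not tested. Without the members beyond outermost genes, 1.90% of members were open at all stages. Other groups had members open in only 1 of the end states. In a group of 7 members between Jag1, a Notch ligand gene, and Btbd3, 7 were open in MEF and 0 in ESC. For a group of 8 between Fgf9 and 1700129C05Rik the numbers were 5 and 0. The whole Jag1 to Btbd3 desert had 35 members, 21 open in MEF and 5 in ESC. The whole Fgf9 to 1700129C05Rik desert had 21, with 13 and 4. Of 8 members within 31.7 kb of the Adam6a to Zfp386 desert, 7 were open in DAY9 and 1 in ESC.

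Annotated noncoding genes were unequally shared between members and other regions. Bodies of lncRNA genes overlapped 954 members, 13.5%, beside 12.1% of other regions, and pseudogenes 1.20%, beside 1.17%. Antigen receptor segments overlapped 0.706% of members, beside 0.0224% of other regions, and the noncoding types that are neither of these nor microRNAs 2.63%, beside 0.596%. MicroRNA genes overlapped 0.0565%, beside 0.140%. MicroRNA genes of the RefSeq gene table lay within 5 kb of 25 members, 0.353%, beside 0.848% of other regions; the sequence table used for the hairpins above gave 19. Promoters lay under 1.16% of members, and the share for other regions is not given here. Of those 82 members, 21 (25.6%) were open in MEF alone and 16 (19.5%) in ESC alone, beside 22.1% and 36.2% of all members. The member at 2410018L13Rik, printed above, had folds of 12.7 and 10.6 for MEF, 8.57 and 9.51 at DAY3, 10.4 and 12.8 at DAY6, 13.99 and 13.5 at DAY9 and 13.3 and 10.8 for ESC. At Gm34698, between the homeobox gene En1 and Insig2, the folds were 8.48 and 6.81 in ESC, with no other peak. Gm40748, 263 kb from Btg1 or Eea1, had 5.16 and 6.61 at DAY6, 13.0 and 12.2 at DAY9 and 14.8 and 12.4 for ESC, after 3.01 in DAY3 replicate 1. Gm6634 had 10.3 and 7.45 in MEF alone. At Gm33958, between Cd83 and Jarid2, a Polycomb cofactor gene, the folds were 5.76 and 6.22 at DAY3, 8.30 and 11.1 at DAY6 and 10.5 and 10.9 at DAY9.

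The Mir344 group of hairpins printed above lies between Gm51483 and Ndn on chromosome 7. A member covered each of the 4 hairpins. At Mir344d-3 the folds were 6.34 and 4.08 in MEF with no other peak, and at Mir344c they were 16.0 and 5.15 in MEF and 4.04 and 5.41 in DAY6. Mir344-2 had 4.28 and 3.83 at DAY3, 11.7 and 10.2 at DAY6 and 5.64 and 6.69 at DAY9, with 1 MEF and 1 ESC library at 3.33 and 3.25. At Mir344g the folds were 3.01 and 4.31 in DAY3, with 3.22 in MEF replicate 2 and 3.91 in DAY6 replicate 2. The sequences of these hairpins resemble each other, and how reads that match several places were counted is not given in the sources used here.

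The member 398 bp from Mir125b-1, a microRNA rich in differentiated cells, was open at the first 4 stages with folds of 2.94 to 5.96 and had no peak in ESC. Its neighbours at 1840 and 4239 bp had no peak in ESC either. Close to Mir99a and Mirlet7c-1, a let-7 gene, a member had 5.89 and 4.08 in MEF and no peak in any later library, while another, 4555 bp from Mir99a, was open in DAY9 at 9.61 and 7.29, with 7.49 in DAY6 replicate 1 and 3.62 in MEF replicate 1. At 1701 bp from Mir135a-2, the folds were 7.47 and 3.00 in MEF alone. Near Mir6390, between Ndfip2 and Spry2, a feedback inhibitor of receptor tyrosine kinase signalling, 3 members were open from DAY3 to DAY9 with folds of 3.43 to 8.71. The nearest of these to Spry2 was also open in ESC, at 12.5 and 7.28.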

How the data were processed

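ATAC-seq peak lists of 10 mouse libraries, 2 at each of 5 stages, were used. Per the submitters' processing notes, Bowtie2 2.3.2, MACS2 2.1.1, deepTools 2.3.6 and the build mm10 were used, with no role or order given; duplicate reads, transposase offset and filters are not given in the sources used here. Each list was made per library and not pooled. The deposited score is the −log10 p-value times 10, and the fold (a ratio of peak to local background), the −log10 p-values and −log10 q-values are as the authors deposited them; the last column is constant and was not used. The fold described and the score ranked peaks within a list, and folds of different lists are set side by side as description, since depth differs.

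Overlapping peaks were merged, and 1 bp of overlap gave a library a region. Distances ran to the 20665 autosomal protein-coding genes of the RefSeq table for GRCm38.p6. Members, gene families and motifs were chosen with earlier results of these data known. Named regions were the 2 members per stage class with the highest fold in the weaker replicate of the defining stage (not all printed). Named deserts were the 10 with most members, the 5 densest, and the 3 with the highest share of ESC alone, MEF alone and transient members among deserts with 10 or more; other deserts and groups named were chosen after their values were seen. Stage differences in the share of peaks were tested by the exact permutation of the sum of squares between stages (420 arrangements), trends by the two-sided exact Jonckheere-Terpstra test (180 arrangements, smallest p = 0.0111), with Benjamini-Hochberg adjustment over 5 tests and a threshold of 0.05. Biological replicates are stated without their source, so p-values measure the spread between these samples. Scripts (Python 3.11.15, numpy 2.4.6, pandas 2.3.3, matplotlib 3.10.9) were tested on simulated lists. Alternatives were other distances, gene sets, list lengths, overlaps and replicates left out. Members' own sequences were not analysed here. Of the 10 deserts with most members, 1 is not reported here.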

Additional observations from a re-analysis of the deposited data

Results flagged for a closer look

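The X chromosome lay outside the rule but held 246 regions over 250 kb from every protein-coding gene with a peak in both libraries of a stage. Open in both libraries were 25 of them for MEF and 169 for ESC, with 22, 46 and 77 at the stages between. The MEF libraries had 68 and 46 peaks over X chromosome regions this far from genes, the DAY3 libraries 34 and 32, the DAY6 libraries 71 and 70, the DAY9 libraries 95 and 94 and the ESC libraries 215 and 284. They were singled out because no comparison above uses them. No stage has more than 2 libraries, so no single library could be tested as an outlier.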

How the results depend on the processing

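Of the 5 tests, 51 of 59 values under the alternatives that kept all libraries stayed on their side of the threshold. The rise of the ESC members was 17.9 points at a distance of 500 kb, 18.4 with the top 50% of each list and 17.3 with 50% of a region covered, and the changes of the MEF members there were −3.90, −4.15 and −3.68 points (exact permutation tests, adjusted p = 0.0556 for the first and 0.111 to 0.167 for the second set). The cause was not tested. The share between stages of the peaks in deserts, 82.3%, passed the threshold with 10 libraries (84.9%) and in the fit with a replicate block (86.9%), and the replicate block changed no other call. Same-numbered libraries did not deviate together over the members (10 correlations from −0.0366 to 0.0258), so they share only a number. With 1 library left out in turn, the share was 81.0 to 99.9%, the ESC rise 14.4 to 22.0 points, the MEF change −6.38 to −1.58 points and the 2 gaps −7.54 to −1.84 and −3.88 to −1.53 points.

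Members numbered 15047 at over 100 kb, 2872 at over 500 kb, 4347 with lists of equal length, 3405 with the top 50% of each list and 14934 with a peak in at least 1 library. The 10 deserts with most held 4.53% of members at 100 kb and 15.1% at 500 kb. At 500 kb, 2.79% of the members gained in ESC were first open at DAY3 and 1.46% of all were open at all stages. With lists of equal length 17.0% of members were gained at DAY3, 6.74% lost at DAY6, 4.37% gained and 4.76% lost at DAY9, with 5.18% of the ESC gains first open at DAY9 and 9.85% of the losses at DAY6; these lists leave out the weakest peaks. Of the losses, 1.503% were first without a peak in ESC with the top 50% of each list and 1.40% with 50% of a region covered, where 2.55% of the gains were first open at DAY3. With a peak in at least 1 library, 6.83% were lost at DAY9 and 2.15% of the losses were first closed at DAY9. The other 220 of these counts were within 1.5 times, and the number of members in each of the 10 deserts moved further than that in 32 cases and not in 63. Counting antigen receptor segments as genes, leaving out members beyond the outermost genes and limiting the other regions to those over 10 kb from genes were chosen after seeing the data and changed no call.

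With 1 library left out, members numbered 7271 to 10051. Gained and lost members were 6.60 to 13.0% and 15.5 to 36.9% at DAY3, 6.12 to 18.7% and 2.04 to 5.97% at DAY6, 4.94 to 11.7% and 1.32 to 8.69% at DAY9, and 27.8 to 52.5% and 10.6 to 17.5% in ESC against DAY9. Against MEF they were 38.0 to 62.9% and 17.0 to 37.6%. Of the gains in ESC, 3.23 to 6.51% were first open at DAY3, 6.39 to 14.7% at DAY6, 5.46 to 11.0% at DAY9 and 74.1 to 84.7% in ESC. Of the losses, 85.9 to 90.8%, 4.02 to 7.39%, 2.32 to 4.35% and 2.54 to 4.13% were first closed at these stages. Transient members were 12.4 to 20.2%, those open at all stages 1.72 to 2.38%, ESC alone 29.1 to 55.0%, MEF alone 15.3 to 36.3%, and the 10 deserts held 7.75 to 8.65%. Depth is unknown, and a peak missing from a list does not show that a region is closed.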
